A study of Homo sapiens with 12 samples.

Results

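Keratin (KRT) genes and keratin-associated protein (KRTAP) genes were examined in peak lists from H1, a line of human embryonic stem cells in long use. All protein-coding genes of the RefSeq annotation whose symbol starts with KRT or KRTAP followed by a digit were taken, which gave 149 of 20037 genes. Of these, 55 were keratin genes and 94 were keratin-associated protein genes. They lay in 6 clusters, taken as chains of members within 250 kb of each other, with 11 genes on chromosome 11, 27 on chromosome 12, 62 on chromosome 17 and 49 on chromosome 21. Chromatin immunoprecipitation with sequencing (ChIP-seq) had been done on H1 cells treated with an shRNA against YTHDF1 (antibody to YTHDF1, and input), and on untreated wild-type H1 cells (antibodies to YTHDF1, RNF2 and H2AK119ub, and input). The labels do not say whether the knockdown line was 1 clone. The 12 libraries formed 6 groups of 2 replicates, and the authors had merged the replicates of each antibody into 1 peak list. There is therefore no spread between replicates and no test between groups, and the intervals given are exact 95% binomial intervals that cover counting error only. Beside a count of 0, the share that 3 counts would give is printed as the limit in place of an interval. Sequencing depth per library was unknown, since read totals are not part of the peak lists. Expression was not measured in these files, so neither the stem cell identity nor the silence or activity of a gene could be checked here.

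Keratins form the intermediate filaments of epithelial cells as pairs of a type I (acidic) and a type II (basic) chain. KRT8, KRT18 and KRT19 are among the keratins of simple, single-layered epithelia and are also expressed by human embryonic stem cells. Most other members are used in stratified epidermis, mucosa, cornea or hair follicles. Keratin-associated proteins are small cysteine-rich or glycine- and tyrosine-rich proteins that crosslink keratin filaments in the hair shaft. RNF2 is the catalytic subunit of Polycomb repressive complex 1 (PRC1), H2AK119ub is the histone H2A ubiquitin mark that PRC1 writes, and YTHDF1 is a reader of N6-methyladenosine on RNA.

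Most keratin and keratin-associated protein genes had no peak of any list. A gene was counted as carrying a mark when a peak overlapped the gene or the 2 kb on either side by at least 1 bp. By that measure 95 of 149 members (63.8%, interval 55.5 to 71.5%) lay outside every list, against a background of 14.7% of all protein-coding genes. RNF2 was at 14 members (9.40%, 5.23 to 15.3%), where the background over all protein-coding genes was 71.7%. H2AK119ub was at 45 members (30.2%, 23 to 38.3%), where the background was 79.0%. Wild-type YTHDF1 was at 19 members (12.8%, 7.86 to 19.2%), where the background was 54.1%. All 3 wild-type marks met at 3 members, KRT8, KRT18 and KRTAP5-2, which is 2.01% of members against 45.2% of protein-coding genes. Neighbouring members share peaks, so these genes are not independent units and no test of the shares was made. Many members also resemble their neighbours closely in sequence (KRT6A, KRT6B and KRT6C, or the genes within a KRTAP family). The treatment of reads that map to several genes is not stated, so the absence of a peak at such copies is uncertain.

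By median, the nearest peak was also farther away from the members than from all protein-coding genes. The distance is 0 kb where a peak overlaps the gene, so it depends on gene length. Members are shorter (median 1.15 kb, against 24.1 kb for all protein-coding genes), and no distance for genes of like length was computed. The median distance from the gene to the nearest RNF2 peak was 76.5 kb for members, against 0 kb for all protein-coding genes. To the nearest H2AK119ub region, here called an island, it was 23.5 kb for members and 0 kb for all protein-coding genes, and to the nearest wild-type YTHDF1 peak 23.9 kb and 0.104 kb. Keratin genes lay closer to an island (median 4.14 kb) than keratin-associated protein genes (163 kb).

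Most members are short genes, and their windows hold less sequence than those of most genes. The median length was 6.43 kb for keratin genes and 0.829 kb for keratin-associated protein genes, against 24.1 kb for all protein-coding genes. Among the 14056 protein-coding genes no longer than the longest member (52.7 kb), the background shares were 0.626% for YTHDF1 in knockdown cells and, in wild-type cells, 42.6% for YTHDF1, 66.1% for RNF2 and 75.1% for H2AK119ub. Among the 1010 protein-coding genes no longer than the longest keratin-associated protein gene (1643 bp), the background shares were 0.198% for YTHDF1 in knockdown cells and, in wild-type cells, 13.1% for YTHDF1, 26.4% for RNF2 and 40.9% for H2AK119ub. The 94 keratin-associated protein genes, which belong to that set, had YTHDF1 at 10 (10.6%, 5.22 to 18.7%), RNF2 at 5 (5.32%, 1.75 to 12%) and H2AK119ub at 21 (22.3%, 14.4 to 32.1%). The share for YTHDF1 was thus near that of short genes in general, whereas those for RNF2 and H2AK119ub were lower. These genes lie in a few clusters and share peaks, so the intervals are too narrow to serve as a test of the difference. Measured by base pairs, YTHDF1 peaks covered 0.853% of the members' windows, against 0.917% of the windows of all protein-coding genes. RNF2 peaks covered 1.35% of the members' windows and 3.45% of those of all protein-coding genes. H2AK119ub islands covered 22.2% of the members' windows and 14.9% of those of all protein-coding genes, so the order for this mark was the reverse of that by gene count. Against the windows of protein-coding genes no longer than the longest member, all 3 coverages were lower at the members, since those windows were covered over 1.56% by YTHDF1, 8.97% by RNF2 and 33.1% by H2AK119ub.

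**Figure D1:**
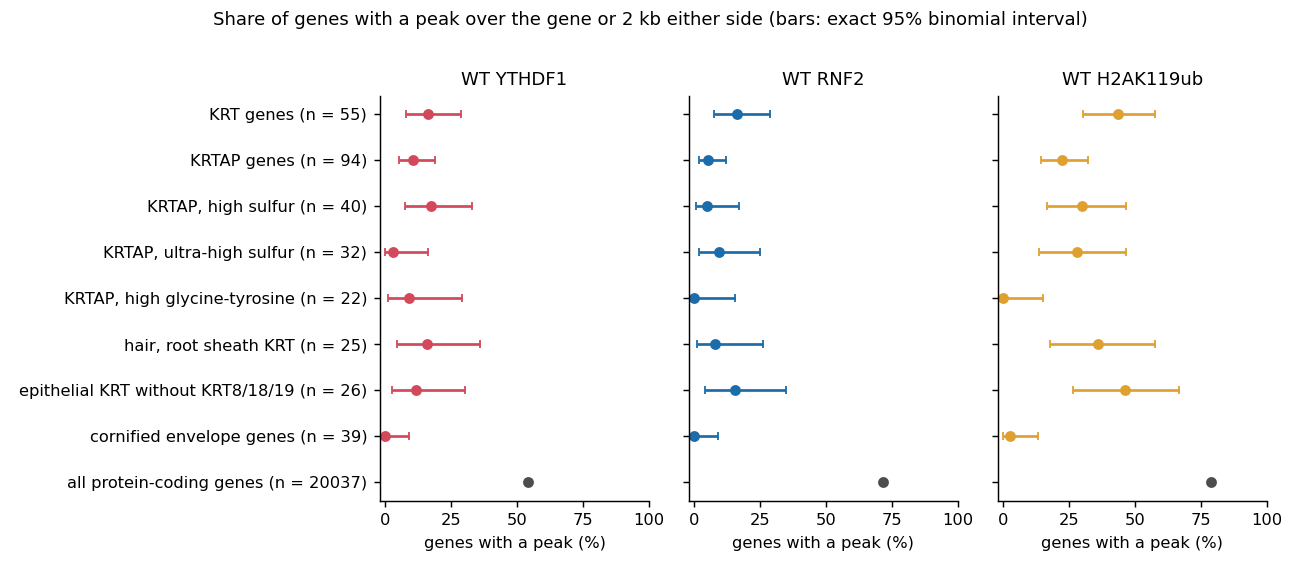
Share of genes, in percent on the x axis, with a wild-type YTHDF1 peak, RNF2 peak or H2AK119ub island over the gene or 2 kb either side, for groups of keratin and keratin-associated protein genes, the cornified envelope genes and all protein-coding genes (rows). Points are shares and bars exact 95% binomial intervals, and each keratin group drawn lies below the 54.1%, 71.7% and 79.0% of all protein-coding genes. Knockdown YTHDF1 is not drawn, as 0 members had a peak.

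Where a promoter window could be matched, the promoters of these genes were mostly poor in the CG dinucleotide and often held a TATA motif. RefSeq promoter windows (250 bases before to 50 after the start, GRCh38.p14) were matched by symbol and gene ID for 114 of the 149 members and for 15843 protein-coding genes. The ratio of observed to expected CG had a median of 0.166 at members and 0.756 at all protein-coding genes, and it reached 0.6 at 1 member (KRTAP17-1) of 114 (0.877%) against 64.2% of all. GC content had a median of 43.7% at members and 62.7% at all protein-coding genes. The letters TATAAA were found on either strand in 85 member promoters (74.6%), against 9.92% of all promoters. The palindromic letters GCCNNNGGC, which the AP-2 family of epidermal transcription factors is known to bind, were found in 11 member promoters (9.65%), against 27.8% of all. Median GC content was 50.5% in the 22 matched promoters of members with an H2AK119ub island and 42.3% in the 92 of members without, and TATAAA was found in 50% of the promoters with an island and 80.4% of those without. H2AK119ub overlapped 11 of the 114 member promoter windows (9.65%, 4.92 to 16.6%), against a background of 70.0%. Wild-type YTHDF1 overlapped 2 (1.75%, 0.213 to 6.19%), against a background of 14.0%, and knockdown YTHDF1 overlapped 0, against 0.347%. RNF2 overlapped 0, which allows a share of up to 2.63%, against a background of 61.7%. These counts and the base composition leave out many of the marked members. A promoter window was matched for only 5 of the 14 genes with RNF2 and 22 of the 45 with an island. KRT18 and KRT19 had no window, and that of KRT8 lies in the interior of its record. Of the 33 members with an island over an annotated end of the gene, 17 had no matched window, so the share with H2AK119ub covers the matched genes alone. RNF2 peaks lay over an annotated end of the gene at 5 members, KRT7, KRT18, KRT19, KRT86 and KRTAP5-2, none of which had a matched window, so RNF2 at their starts was not assessed.

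**Figure D2:**
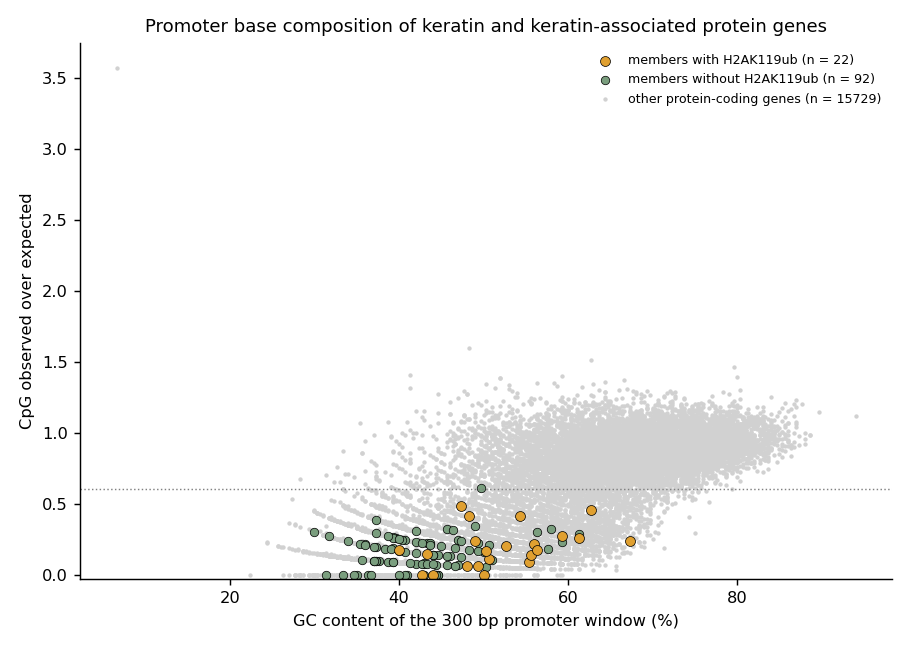
GC content in percent (x axis) against the observed over expected CpG ratio (y axis) of each RefSeq promoter window of 300 bp, for members with and without an H2AK119ub island over the gene or 2 kb either side and for all other protein-coding genes. The members lie low in the plot with a median ratio of 0.166, and 1 of 114 is above the dotted line at 0.6.

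The following promoter windows show this range of base composition, with capitals marking CG dinucleotides and the TATAAA motif on either strand. In KRTAP1-4 a TATAAA overlaps the later TTTATA, and its last bases are left in lower case. The windows were chosen by their marks. YTHDF1 peaks overlap those of KRT28 and KRTAP1-4, H2AK119ub islands overlap those of KRT8 and KRTAP10-12, and no peak overlaps those of KRT5 and KRTAP6-1. The window of TFAP2A, an AP-2 factor of surface ectoderm that is no member, is shown as a CG-rich contrast that RNF2 and H2AK119ub overlap. The KRT28 window (chr17:40799910-40800209, minus strand) has 2 CG, and that of KRTAP1-4 (chr17:41030146-41030445, minus) has 4. That of KRT8 (chr12:52926420-52926719, minus) lies in the interior of the long KRT8 record and has 2 CG. KRTAP10-12 (chr21:44696922-44697221, plus) has 5, KRT5 (chr12:52520345-52520644, minus) has 7, KRTAP6-1 (chr21:30613881-30614180, minus) has 2 and TFAP2A (chr6:10412342-10412641, minus) has 18.
KRT28: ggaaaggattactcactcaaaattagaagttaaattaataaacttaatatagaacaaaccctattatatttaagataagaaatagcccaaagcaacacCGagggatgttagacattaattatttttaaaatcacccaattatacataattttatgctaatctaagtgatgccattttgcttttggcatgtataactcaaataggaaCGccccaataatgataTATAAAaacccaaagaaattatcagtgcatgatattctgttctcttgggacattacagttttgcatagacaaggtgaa
KRTAP1-4: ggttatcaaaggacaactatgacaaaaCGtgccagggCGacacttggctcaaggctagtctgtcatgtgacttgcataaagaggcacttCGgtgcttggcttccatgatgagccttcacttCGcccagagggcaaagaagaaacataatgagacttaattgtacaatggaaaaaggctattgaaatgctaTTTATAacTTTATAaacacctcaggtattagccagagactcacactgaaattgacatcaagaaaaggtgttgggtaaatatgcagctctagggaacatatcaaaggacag
KRT8: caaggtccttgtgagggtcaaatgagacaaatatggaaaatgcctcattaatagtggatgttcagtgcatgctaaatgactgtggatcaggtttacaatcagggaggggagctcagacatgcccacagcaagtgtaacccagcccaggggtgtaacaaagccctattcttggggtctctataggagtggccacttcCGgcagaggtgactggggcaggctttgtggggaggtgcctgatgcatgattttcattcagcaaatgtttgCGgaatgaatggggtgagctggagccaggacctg
KRTAP10-12: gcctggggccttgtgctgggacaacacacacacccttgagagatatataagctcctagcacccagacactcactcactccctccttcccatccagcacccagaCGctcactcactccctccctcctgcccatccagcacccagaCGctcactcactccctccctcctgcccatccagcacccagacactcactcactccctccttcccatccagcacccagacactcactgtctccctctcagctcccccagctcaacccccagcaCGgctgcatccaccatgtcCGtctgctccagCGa
KRT5: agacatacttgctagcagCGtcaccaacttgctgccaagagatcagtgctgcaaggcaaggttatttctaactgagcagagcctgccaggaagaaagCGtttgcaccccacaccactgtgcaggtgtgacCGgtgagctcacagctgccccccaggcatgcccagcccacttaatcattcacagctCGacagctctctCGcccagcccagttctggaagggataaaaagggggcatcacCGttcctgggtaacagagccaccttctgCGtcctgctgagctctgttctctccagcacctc
KRTAP6-1: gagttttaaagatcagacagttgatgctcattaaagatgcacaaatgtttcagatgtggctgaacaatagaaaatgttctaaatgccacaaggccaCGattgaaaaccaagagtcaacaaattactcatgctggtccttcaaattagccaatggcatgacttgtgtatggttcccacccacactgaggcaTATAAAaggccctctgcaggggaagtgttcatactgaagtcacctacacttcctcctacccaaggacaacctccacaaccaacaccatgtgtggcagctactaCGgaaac
TFAP2A: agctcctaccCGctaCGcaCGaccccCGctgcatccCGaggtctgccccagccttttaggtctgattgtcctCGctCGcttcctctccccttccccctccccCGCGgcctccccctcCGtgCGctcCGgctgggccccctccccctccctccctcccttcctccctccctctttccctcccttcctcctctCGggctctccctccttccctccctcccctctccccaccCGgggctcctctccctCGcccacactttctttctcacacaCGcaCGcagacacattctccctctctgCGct

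H2AK119ub coverage of the clusters ran from 0 to several times that of their chromosome. The 34 keratin-associated protein genes between KRTAP3-3 and KRTAP17-1 on chromosome 17 (40993430 to 41315710, 322 kb) had neither an RNF2 peak nor an H2AK119ub island anywhere in the stretch, while the whole chromosome was covered over 5.10% by RNF2 and 26.2% by H2AK119ub. The 33 genes between KRTAP24-1 and KRTAP19-8 on chromosome 21 (30281309 to 31038476, 757 kb) had no H2AK119ub island and 1 RNF2 peak, which lay 11.8 kb from KRTAP13-1. Around the 16 genes from KRTAP10-1 to KRTAP10-12 on the same chromosome (44538981 to 44698044), H2AK119ub covered 39.9% of 159 kb, against 8.49% of chromosome 21. On chromosome 11 islands likewise covered 47.0% of the stretch from KRTAP5-1 to KRTAP5-6 (1584342 to 1697755). They covered 41.1% of that from KRTAP5-7 to KRTAP5-11 (71527267 to 71582875), against 15.4% of the chromosome. An island was at 5 of 6 genes in the former stretch and at 4 of 5 in the latter. At some of these genes it lay only in the 2 kb beside the gene.

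The keratin genes stood between these extremes. In the type II cluster on chromosome 12 (which ends in KRT18, a type I gene, and runs from KRT80, 52168996 to 52952906, 784 kb), islands covered 29.1% of the sequence, against 10.7% of the chromosome, and lay at 15 of 27 genes. On chromosome 17 the 12 keratin genes from KRT222 to KRT40 had islands over 4.27% of 332 kb and at 1 gene, KRT12. The 16 keratin genes from KRT33A to KRT17 had islands over 28.1% of 278 kb and at 8 genes. Islands covered 26.2% of the whole of chromosome 17, and 79.0% of all protein-coding genes had an island. The longest run of neighbouring members without RNF2 or H2AK119ub on chromosome 17 was 40 genes over 494 kb, from KRT20 to KRT33B. Of these, 31 in a row, from KRTAP1-3 to KRT33B, had no YTHDF1 peak either. Median promoter GC content was 42.0% in the KRTAP stretch of chromosome 17 and 38.5% in that from KRTAP24-1 to KRTAP19-8, the 2 stretches with no island. It was 55.3% in the KRTAP10 and KRTAP12 genes and 50.2% in the type II cluster, and the part of base composition in the difference was not tested. In the KRTAP5 stretches too few promoters were matched for a median.

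**Figure D3:**
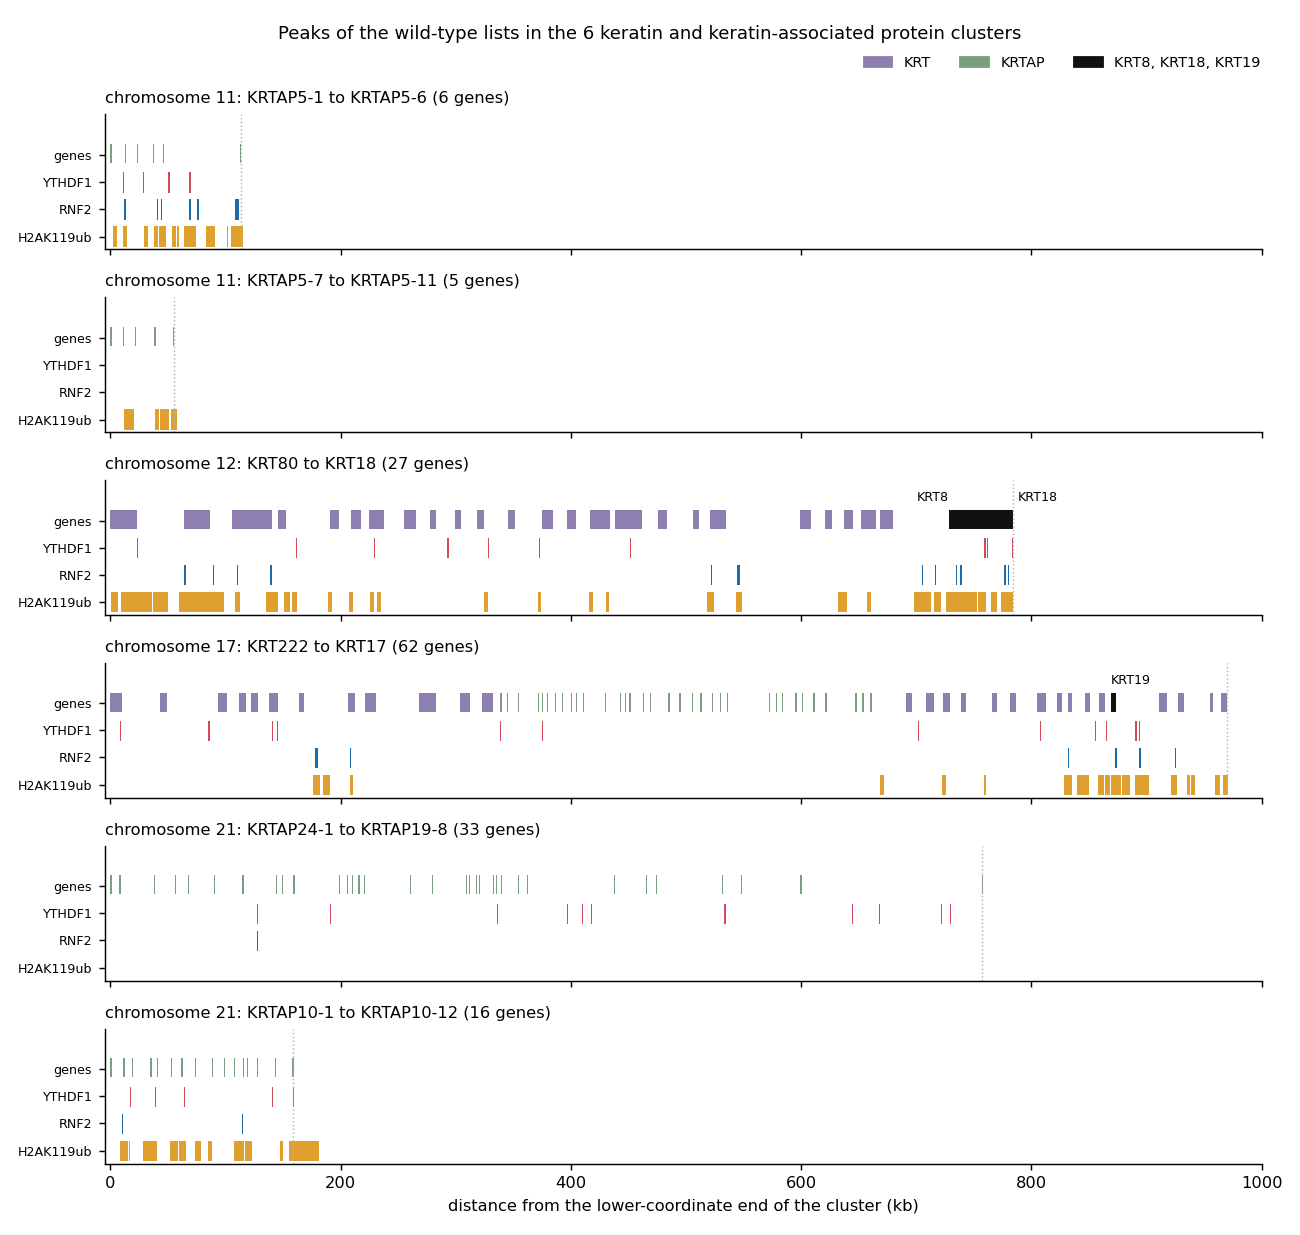
Maps of the 6 clusters to a common scale, with the distance from the lower-coordinate end of the cluster in kb on the x axis and rows for genes, wild-type YTHDF1 peaks, RNF2 peaks and H2AK119ub islands. Every feature is drawn at least 1 kb wide, dotted lines mark the ends of clusters, and the KRTAP part of chromosome 17 and the cluster from KRTAP24-1 to KRTAP19-8 have no H2AK119ub island.

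YTHDF1 peaks were found in every cluster except that from KRTAP5-7 to KRTAP5-11. In the cluster from KRTAP24-1 to KRTAP19-8, which had no island, 11 YTHDF1 peaks gave 14.5 peaks per Mb, against 10.5 per Mb of chromosome 21. In the KRTAP stretch of chromosome 17 there were 2, or 6.21 per Mb, against 21.2 per Mb of that chromosome. The stretch from KRTAP5-1 to KRTAP5-6 had 44.1 per Mb, against 17.5 per Mb of chromosome 11, and that from KRTAP10-1 to KRTAP10-12 had 31.4 per Mb, against 10.5 per Mb of chromosome 21. The type II cluster had 14.0 per Mb, against 16.8 per Mb of chromosome 12. Over all 6 clusters YTHDF1 peaks covered 0.706% of the sequence, against 0.699% of the genome, and RNF2 peaks covered 1.11% of the clusters and 2.15% of the genome. The stretch from KRTAP5-1 to KRTAP5-6 was the exception for RNF2, with 6.42% covered, against 2.66% of chromosome 11. H2AK119ub islands covered 16.3% of the clusters, a larger share than of the genome. Of the peaks inside the clusters, 22 of 44 YTHDF1 peaks, 12 of 29 RNF2 peaks and 21 of 70 islands lay between the members, outside their windows.

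Among type II keratins, KRT86 had the strongest RNF2 peak of any member. Each fold enrichment is the authors' value for a peak over the background of their peak caller, and it ranks peaks only within a list. KRT86 encodes a hair cortex keratin, and its record (chromosome 12, 52274645 to 52309163) contains that of KRT81, another hair keratin. A 5.2-fold RNF2 peak (52307690 to 52309396) lay at the higher-coordinate end of KRT86 under a 10.2 kb H2AK119ub island that reached KRT83, and a 2.79-fold peak lay inside the gene. KRT7, a keratin of simple and glandular epithelia (52233243 to 52255853), had a 4.16-fold RNF2 peak of 2.17 kb over its lower-coordinate end. The peak lay in an H2AK119ub island of 38.8 kb, the longest at any member, whose score was at the cap of 1000. That island also held a 6.49-fold RNF2 peak (52258124 to 52259028), 2.27 kb from KRT7 and within 2 kb of the pseudogene KRT87P. KRT77, an epidermal keratin, had a 4.66-fold RNF2 peak (52690663 to 52691502) in a 6.20 kb island. KRT80, at the cluster's lower-coordinate end, had no RNF2 but islands of 26.8 and 6.60 kb and a 2.81-fold YTHDF1 peak over its higher-coordinate end.

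Other type II genes apart from KRT8 had no RNF2 peak. KRT82, a hair cuticle keratin, had a 3.09-fold YTHDF1 peak (52397998 to 52398387) between 2 islands of 3.20 kb each. KRT73, of the inner root sheath, had a YTHDF1 peak of 2.81-fold and nothing else. The epidermal keratins KRT1, KRT2 and KRT5 had no peak of any list, and neither had KRT75, KRT6B and KRT6C, the longest run of unmarked neighbours in this cluster at 49.7 kb. The strongest RNF2 peak within the type II cluster was at none of its genes. It was 8.08-fold and 2.17 kb wide (52713587 to 52715751), 10.1 kb from KRT77 and within 2 kb of the pseudogene KRT126P.

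Type I keratins had RNF2 at KRT12, KRT14, KRT18, KRT19 and KRT36. KRT36, a hair keratin (chromosome 17, 41486136 to 41489910), had a 4.24-fold RNF2 peak inside the gene under an island of 6.60 kb. KRT12, the cornea keratin, and KRT14, the partner of KRT5 in basal epidermis, each had a 3.04-fold RNF2 peak, within the gene at KRT12 and beside the gene at KRT14. KRT15, a keratin of basal cells and the hair follicle bulge, had 2 islands and a YTHDF1 peak of 2.95-fold (41519637 to 41520445). KRT222 (40654665 to 40665177), a keratin-related gene at the cluster's lower-coordinate end, had a YTHDF1 peak of 3.20-fold, with neither RNF2 nor H2AK119ub. KRT28, of the inner root sheath, had 2 YTHDF1 peaks of 2.81-fold, and KRT32, a hair cuticle keratin, had 1 of 2.81-fold, all without RNF2 or H2AK119ub. KRT10, KRT20, KRT23 and KRT24 had no peak of any list. Of the type I and type II hair and root sheath keratins together, 13 of 25 (52%) had no peak. Among epithelial keratins other than KRT8, KRT18 and KRT19 it was 13 of 26 (50%), against a background of 14.7% of all protein-coding genes.

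The keratin-associated protein genes separated by family along with their cluster. As background, protein-coding genes up to 1643 bp had RNF2 at 26.4%, H2AK119ub at 40.9% and wild-type YTHDF1 at 13.1%. The high glycine-tyrosine families, all on chromosome 21 between KRTAP24-1 and KRTAP19-8, had neither RNF2 nor H2AK119ub at any of 22 genes, which allows a share of up to 13.6%. YTHDF1 was at 2 of them, KRTAP8-1 (2.80-fold) and KRTAP20-1 (2.81-fold). The ultra-high sulfur families had H2AK119ub at 9 of 32 genes, all of them KRTAP5 genes, and at none of the KRTAP4, KRTAP9 and KRTAP17 genes. Among them KRTAP5-5 had a 3.92-fold RNF2 peak in a 6.20 kb island and KRTAP5-6 a 3.29-fold RNF2 peak in a 10.4 kb island. KRTAP5-2 carried all 3 marks, with a 2.9-fold RNF2 peak (1596572 to 1597348) and a 2.94-fold YTHDF1 peak (1595581 to 1595936) that lay side by side in an island of 3.8 kb.

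The high sulfur families had H2AK119ub at 12 of 40 genes (30%), against 40.9% of protein-coding genes up to 1643 bp. All 12 were KRTAP10 and KRTAP12 genes. KRTAP10-2 and KRTAP12-4 had RNF2 peaks of 3.29-fold and 3.08-fold. KRTAP10-12 (chromosome 21, 44697172 to 44698044) had the strongest YTHDF1 peak of all members, at 3.37-fold, inside an island of 26.4 kb at the score cap. KRTAP12-1 had the next, at 3.23-fold, without an island. All 16 KRTAP10 and KRTAP12 genes lie inside the gene TSPEAR (44497893 to 44711572), so peaks there cannot be assigned to the KRTAP genes alone. On chromosome 17 the only peaks at KRTAP genes were those of YTHDF1 at KRTAP1-4 (3.09-fold, 41029448 to 41030183, inside the gene) and KRTAP3-3 (2.81-fold).

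The members other than KRT8, KRT18 and KRT19 were then set beside these 3 keratins. For all protein-coding genes the shares were 71.7% with RNF2, 79.0% with H2AK119ub and 54.1% with wild-type YTHDF1, so a gene with RNF2 and an island was the common case. RNF2 was at 11 of the 146 other members (7.53%, 3.82 to 13.1%) and at all 3 of KRT8, KRT18 and KRT19. H2AK119ub was at 42 of 146 (28.8%, 21.6 to 36.8%) and at all 3, and YTHDF1 at 17 of 146 (11.6%, 6.93 to 18%) and at KRT8 and KRT18. H2AK119ub covered 18.3% of the windows of the other members, against 83.8% of those of KRT8, KRT18 and KRT19. RNF2 covered 0.941% of the windows of other members and 7.84% of those of the 3 keratins, and YTHDF1 0.769% and 2.2% in the same order. The windows of all protein-coding genes were covered over 14.9% by H2AK119ub, 3.45% by RNF2 and 0.917% by YTHDF1. Those of protein-coding genes no longer than the longest member were covered over 33.1%, 8.97% and 1.56% in the same order. KRT8 and KRT18 overlap by 1006 bp and share peaks, and the KRT8 record is the longest of all members at 52.7 kb, so the 3 genes amount to 2 loci and their shares carry wide intervals.

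Peak by peak, the values at other members and at KRT8, KRT18 and KRT19 overlapped. The 12 RNF2 peaks at other members ranged from 2.79-fold to 5.2-fold with a median of 3.29-fold, and the 5 at KRT8, KRT18 and KRT19 from 2.77-fold to 4.66-fold with a median of 3.71-fold. The 18 YTHDF1 peaks at other members ranged from 2.80-fold to 3.37-fold and the 4 at the KRT8 and KRT18 locus from 2.73-fold to 2.94-fold. Islands had a median width of 5.10 kb at other members (44 islands) and 7.90 kb at KRT8, KRT18 and KRT19 (6 islands), and the longest were 38.8 kb and 26.6 kb. In the better-scoring 50% of each list, 2 RNF2 peaks and 0 YTHDF1 peaks remained at KRT8, KRT18 and KRT19, in place of 5 and 4.

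Within the KRT8 and KRT18 locus the YTHDF1 and RNF2 peaks lay at separate places. All of them overlapped an H2AK119ub island except the 2.73-fold YTHDF1 peak in KRT8. KRT8 (chromosome 12, 52897191 to 52949860) held RNF2 peaks of 3.71-fold and 2.77-fold in its lower-coordinate part, under an island of 26.6 kb. A 4.66-fold RNF2 peak (52945578 to 52946289) and a 3.27-fold peak (52948684 to 52949470) lay near its other end, the second over the lower-coordinate end of KRT18 (52948855 to 52952906), and both under an island of 10.8 kb. YTHDF1 peaks of 2.94-fold, 2.81-fold and 2.73-fold lay within KRT8 between 52928209 and 52930767, and 1 of 2.86-fold lay within KRT18. No YTHDF1 peak of the locus overlapped an RNF2 peak. KRT19 (chromosome 17, 41523617 to 41528308) had a 4.56-fold RNF2 peak of 2.05 kb over its higher-coordinate end, under an island of 8.40 kb, and no YTHDF1 peak. A second island of 4.20 kb lay between KRT15 and KRT19, within 2 kb of each.

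**Figure D4:**
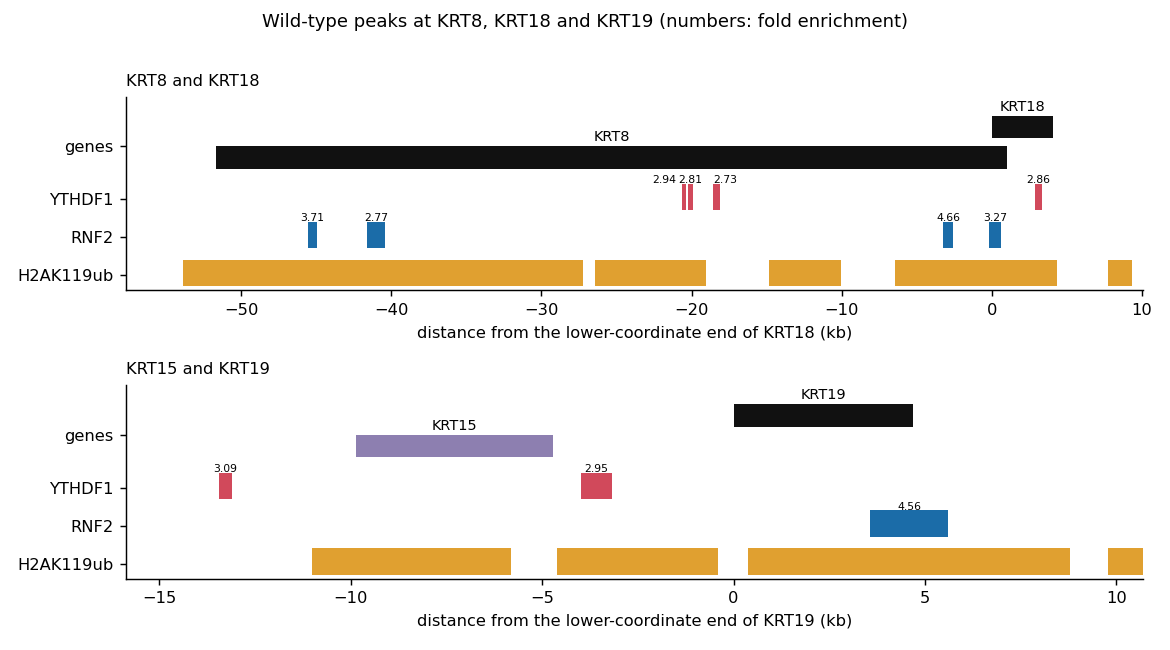
Wild-type YTHDF1 peaks, RNF2 peaks and H2AK119ub islands at KRT8 and KRT18 (top) and at KRT15 and KRT19 (bottom), with the distance in kb from the lower-coordinate end of KRT18 or KRT19 on the x axis and the fold enrichment written above each peak. RNF2 and YTHDF1 peaks lie at different positions, and an 8.40 kb island spans most of KRT19.

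The RNF2 peaks at members were small and lay on H2AK119ub islands, as most RNF2 peaks did. All 14 members with RNF2 also had an island, against 96% of protein-coding genes with RNF2. All 17 RNF2 peaks at members overlapped an island (interval 80.5 to 100%), and the 85.1% of the whole RNF2 list lies within that interval. In the other direction, 14 of 45 members with an island had RNF2 (31.1%), against 87.2% of protein-coding genes with an island. Counted by island, 17 of 50 islands at members overlapped an RNF2 peak (34%, 21.2 to 48.8%), and the 39.9% of the whole island list lies within that interval. The RNF2 peaks had a median width of 840 bp, against 1347 bp in the whole list, and 14 of 17 were narrower than that list median. Their median fold enrichment was 3.29, against 3.74 in the list. The widest was 2.17 kb, and in the better-scoring 50% of the list RNF2 was left at 7 members.

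In 3 of 4 other gene lists of epidermis and intermediate filaments, RNF2 and H2AK119ub were at shares near the background (71.7% and 79.0% of all protein-coding genes) or above it. The other intermediate filament genes had RNF2 at 15 of 16 and H2AK119ub at 16, with the strongest RNF2 peaks at NEFH (29.9-fold, 5.29 kb) and PRPH (26.0-fold, 12.6 kb), which encode neuronal filament proteins. Genes for desmosome and plakin partners, which anchor or bundle keratin filaments, had RNF2 at 14 of 18 and H2AK119ub at 14. DSC3, a desmosomal cadherin, had a 26.6-fold RNF2 peak of 8.58 kb, and TCHH, which crosslinks keratin in the inner root sheath, a 37.4-fold peak of 17.3 kb. Transcription factors of epidermis and hair had RNF2 at 13 of 15 and H2AK119ub at 15. HOXC13, a regulator of hair keratin genes, lay in a 181 kb RNF2 peak of 96.9-fold, and TFAP2A had an 81.0-fold peak of 59.7 kb. YTHDF1 was at 9 of 16, 11 of 18 and 10 of 15 genes of these lists, beside the background of 54.1%.

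The cornified envelope genes, another set of clustered skin genes on chromosome 1, were mostly outside every list. No peak was found at 63.8% of members and 97.4% of these genes, against a background of 14.7% of all protein-coding genes. None of the 39 listed genes had an RNF2 peak or a YTHDF1 peak, which allows a share of up to 7.69%. LORICRIN, which encodes a main cornified envelope protein, was the only one with an H2AK119ub island, of 3.8 kb. The background over all protein-coding genes was 71.7% for RNF2, 54.1% for YTHDF1 and 79.0% for H2AK119ub. For protein-coding genes up to 1643 bp it was 26.4%, 13.1% and 40.9% in the same order. TCHH, counted above with the desmosome and plakin partners, lies on the same chromosome (152106317 to 152115444), near RPTN of this list (152153595 to 152159228). Its 37.4-fold RNF2 peak is outside the count of 0, which thus depends on how genes were assigned to lists. Their promoters also had a low CG ratio, with a median of 0.111, and 62.9% held TATAAA.

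**Figure D5:**
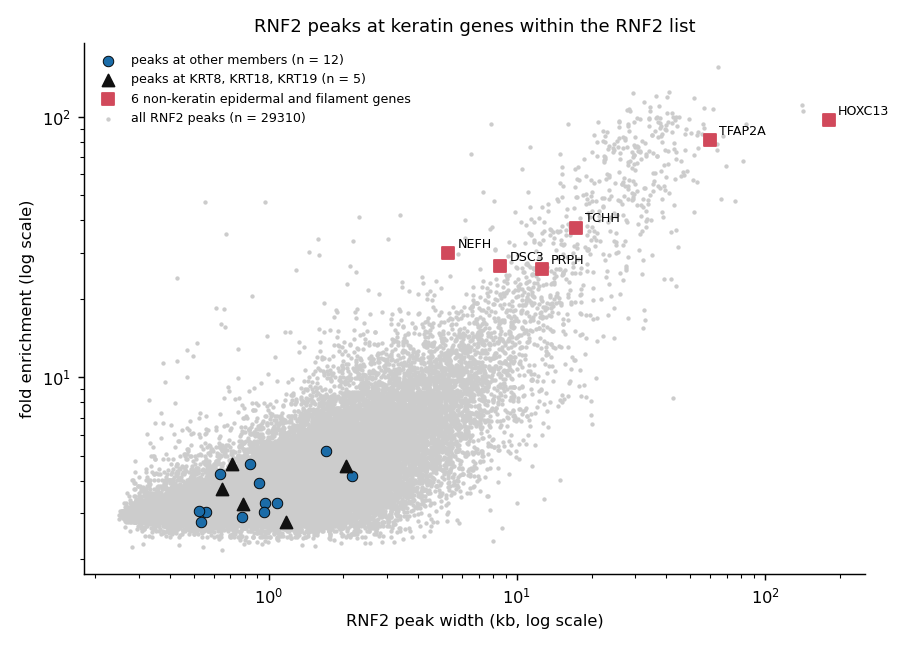
Width in kb (x axis, log scale) and the authors' fold enrichment (y axis, log scale) of RNF2 peaks at members other than KRT8, KRT18 and KRT19, at those 3 genes, at 6 genes of other epidermal and filament lists, and in the whole RNF2 list. Peaks at members are at most 2.17 kb wide and 5.2-fold, whereas HOXC13 and TFAP2A lie in peaks of 181 and 59.7 kb.

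By −log10 p, 15 of the 22 YTHDF1 peaks at members were weaker than the median of their list. Overlap with RNF2 was found at 0 of these 22 peaks, which allows a share of up to 13.6%, and the 12.7% of the whole YTHDF1 list is under that limit. Between the members, 3 of 22 YTHDF1 peaks overlapped an RNF2 peak, at 1652959 to 1653597 on chromosome 11, 41547699 to 41547982 on chromosome 17 and 30408752 to 30409154 on chromosome 21. Of the YTHDF1 peaks at members, 10 overlapped an island (45.5%, 24.4 to 67.8%), against 28.3%. Their median fold enrichment was 2.81, against 2.89 in the list, and their −log10 q ranged from 1.55 to 2.85, where the lowest value in the list was 1.5. In the better-scoring 50% of the list YTHDF1 was left at 7 members, and with peaks of a −log10 q of at least 4 at 0 members, where the background fell to 4.12%.

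In YTHDF1-knockdown cells 0 of 149 members had a YTHDF1 peak, against 19 of 149 in wild-type cells, and the background of the knockdown list was 0.843%. The count of 0 allows a share of up to 2.01%. The nearest knockdown peak to any member lay 590 kb from KRTAP10-12. The knockdown list held 226 peaks, against 44498 in the wild-type YTHDF1 list. By median, the nearest knockdown peak was 4379 kb from members and 3938 kb from all protein-coding genes. The lowest −log10 q was 4.01 in the knockdown list and 1.5 in the wild-type list, and no wild-type member peak reached 4. With that common minimum the count was 0 in knockdown and 0 in wild-type cells, so loss of YTHDF1 from these genes cannot be told apart from the difference in the lowest −log10 q that each list holds.

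Of the 12 protein-coding genes next to the clusters, 10 had RNF2, 10 had H2AK119ub and 6 had wild-type YTHDF1, and 0 had a YTHDF1 peak in knockdown cells. The background over all protein-coding genes was 71.7%, 79.0%, 54.1% and 0.843% in the same order, so marked neighbours were the common case. DUSP8, a phosphatase gene 11.5 kb from KRTAP5-1, had 6 RNF2 peaks of up to 8.99-fold and an island of 28.8 kb. SMARCE1, which encodes a chromatin remodelling subunit and lies 6.85 kb from KRT222, had RNF2 at 3.28-fold, YTHDF1 at 3.23-fold and an island of 3.8 kb. EIF4B and EIF1, which encode translation initiation factors and lie 53.5 kb from KRT18 and 64.3 kb from KRT17, each had all 3 marks. Beside the cluster from KRTAP24-1 to KRTAP19-8, CLDN8, a tight junction gene, had no peak, while TIAM1, which encodes a Rac exchange factor and lies 79.9 kb from KRTAP19-8, had a 7.40-fold RNF2 peak of 5.39 kb.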

How the data were processed

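All values came from peak lists on hg38, which the authors had made from merged replicates. The submitters' processing notes name SICER 1.1, MACS2 2.1.0, Picard, SAMtools 1.3.1, Bowtie2 2.2.5 and Trimmomatic 0.35 with no role or setting. Which caller made each list, and how reads that map to several similar genes were treated, is not stated in the labels. The YTHDF1 and RNF2 lists carry the authors' fold enrichment, −log10 p and −log10 q and a deposited score of 10 times the −log10 p, capped at 1000. The H2AK119ub list carries a deposited score of unstated scale. These values describe or rank peaks within a list only, apart from a common −log10 q minimum of 4 for YTHDF1.

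Gene positions and promoters came from RefSeq (GRCh38.p14). Clusters were members within 250 kb of each other. Overlaps, covered base pairs, exact binomial intervals and the limit of 3 counts for a count of 0 were computed with Python 3.11.15, pandas 2.3.3 and SciPy 1.17.1, and overlap counting was tested on simulated peaks. Strength was −log10 p, or the score for islands. The members and lists were chosen with earlier results of these data known. Named genes were KRT8, KRT18 and KRT19, members with RNF2, the 10 with the strongest YTHDF1 peak, the 5 with the longest island without RNF2, members at cluster ends with their neighbours, and 2 genes of each other list by RNF2 fold. Other genes were named after their values were seen. KRT75 had been left out of the family lists and was added. The background of genes up to 1643 bp was added after the data had been seen.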

Additional observations from a re-analysis of the deposited data

How the results depend on the processing

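The number of members with H2AK119ub (45) stayed between 32 and 53 with other windows, midpoints or the better-scoring 50% of the list. Wild-type YTHDF1, at 19 members, was at 11 over gene bodies alone, at 32 with 5 kb either side, at 7 with the better-scoring 50% and at 0 with a −log10 q of at least 4. RNF2, at 14 members, was at 9 over gene bodies and at 7 with the better-scoring 50%. In each of these settings the share of members was below that of all protein-coding genes. Covered shares of the clusters under chaining within 100 kb and with the better-scoring 50% were 0.675% and 0.322% for YTHDF1, 1.17% and 0.573% for RNF2, and 17.3% and 12.9% for H2AK119ub. At KRT8, KRT18 and KRT19 the better-scoring 50% left 0 YTHDF1 and 2 RNF2 peaks. The knockdown count was 0 in all settings run. Fewer or shorter intervals entered the stricter settings by construction. No paired analysis was possible because the replicates had been merged in each list, and for the same reason no replicate could be left out. Unknown depth limits every statement on absent peaks.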
